A study of Mus musculus with 12 samples.

Results

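Trp63, which encodes the transcription factor p63, and the 5 basal keratin genes Krt5, Krt14, Krt15, Krt16 and Krt17 were followed through 12 RNA libraries of sorted mouse mammary epithelial cells. Each of the 6 genes had an entry of its own among the 20114 entries of the count table that name a single locus, and all 6 passed the filter on low counts. The table lists 1 mm9 position per entry, 25683850 on chromosome 16 for Trp63 and 101537500 on chromosome 15 for Krt5. The type I keratins lie together on chromosome 11, listed at 99993072 for Krt15, 100064475 for Krt14, 100107405 for Krt16 and 100117530 for Krt17. The keratin genes are on the minus strand, and these positions are not their transcription starts.

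The donors were adult female mice, 9 weeks old, of mixed 129X1/SvJ, C57BL/6 and Swiss Webster ancestry, and the libraries form 3 groups of 4. All carried mT-mG, a membrane reporter that turns from red tdTomato to green EGFP when Cre acts, and a Cre-dependent SmoM2 allele, an active form of the Hedgehog signal transducer Smoothened. Recombined libraries were the EGFP, SmoM2-positive cells of mT-mG/SmoM2;MMTV-Cre animals. Unrecombined libraries were the tdTomato cells of the same genotype, and wild type libraries were mT-mG/SmoM2;+ cells, with no Cre. The MMTV promoter, which drives Cre in mammary epithelium and in some other secretory tissues, decides which cells recombine, and no group held EGFP cells without SmoM2. Recombination by Cre, SmoM2 and sorted color therefore cannot be told apart in the recombined libraries. Recombined and unrecombined libraries share the Cre genotype, and the file headers call unrecombined and wild type libraries red. The labels do not say which animals each library came from, so p-values measure the spread between these libraries, which may be technical.

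p63 is the master regulator of basal cells in stratified and glandular epithelia, where it maintains the progenitor state and drives adhesion and keratin genes. Keratins assemble as pairs of 1 type II and 1 type I protein. Krt5 (type II) and Krt14 (type I) form the classic filament pair of basal cells, in the mammary gland of the myoepithelial layer, while luminal cells carry the simple keratins Krt8, Krt18 and Krt19. Krt15 is a further type I keratin of basal cells and hair follicle stem cells. Krt16 and Krt17 are type I keratins known for their induction in wounded or activated epidermis, and Krt17 is also present in mammary myoepithelium and in hair follicles.

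Depth lay between 19581993 and 34779433 counts per library, and mitochondrial loci took 13.1% to 27.8% of them. Recombined libraries 3 and 4 stood apart on the first principal component (31.4% of the variance) and had the fewest loci with counts, 14256 and 14601, against up to 16814 in the others. Transcripts of salivary gland were high in recombined 1 and 2, unrecombined 1 and 2 and wild type 2, with a summed level of 664 to 55760 CPM (counts scaled to library size) against 44.2 to 71.4 CPM in the other 7. In those 7, most of the sum, 41.4 to 69.9 CPM, came from the entry of Amy1, which also names Rnpc3 and is not specific to salivary transcripts. The Hedgehog targets Ptch1, Hhip and Gli1, and Smo itself, were higher in all 4 recombined than in all 8 other libraries. Mouse Smo counts are not a direct check of the SmoM2 allele, whose transcript sequence is not described in the labels.

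The transcripts of these keratins share stretches of identical sequence, which bears on how their reads were counted. In the GENCODE M21 transcripts of GRCm38, Krt14 and Krt16 had 188 windows of 50 bases in common, 11.4% of the windows of Krt14 and 12.4% of those of Krt16. The longest identical run, 134 bases, lies in the coding part of exon 1 of both genes, at chr11:100207017-100207150 in Krt14 and chr11:100248476-100248609 in Krt16, both on the minus strand. Krt14 and Krt17 shared 55 windows, with a longest run of 71 bases in exon 6, at chr11:100204114-100204184 and chr11:100257439-100257509, minus strand. Krt5 shared no run longer than 16 bases with Krt14, Krt15, Krt16 or Krt17, and Trp63 appeared in no entry that joins several loci. The 2 runs are shown because a read within either fits both genes.
Krt14 and Krt16, exon 1: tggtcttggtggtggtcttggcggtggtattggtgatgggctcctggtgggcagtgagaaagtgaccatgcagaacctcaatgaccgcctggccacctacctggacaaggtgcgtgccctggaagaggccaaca
Krt14 and Krt17, exon 6: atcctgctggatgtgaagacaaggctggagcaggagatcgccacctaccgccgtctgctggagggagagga

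Of the 6 genes, 4 were higher in recombined than in wild type libraries, none was lower, and Krt15 and Krt16 did not pass. Against unrecombined libraries 5 were higher and only Krt16 did not pass. The test was the quasi-likelihood F test of edgeR over 14039 loci, with Benjamini-Hochberg adjusted p under 0.05. Over all loci tested, 6.55% passed in the first comparison (4.17% higher and 2.38% lower) and 5.22% in the second (3.08% higher and 2.14% lower). Every recombined library exceeded every wild type one for 4 of the 6 genes and every unrecombined one for 5, and none of the 6 had the opposite order. Over all loci this held for 6.33% above and 5.91% below in the first comparison, and for 5.57% above and 5.71% below in the second. The median log2 fold change of the 6 genes was 2.76 and 3.11, beside -0.02 and -0.01 for all loci. The 2 comparisons share the recombined libraries and are not independent. In these bulk libraries, more basal cells and more RNA per basal cell cannot be told apart.

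**Figure D1:**
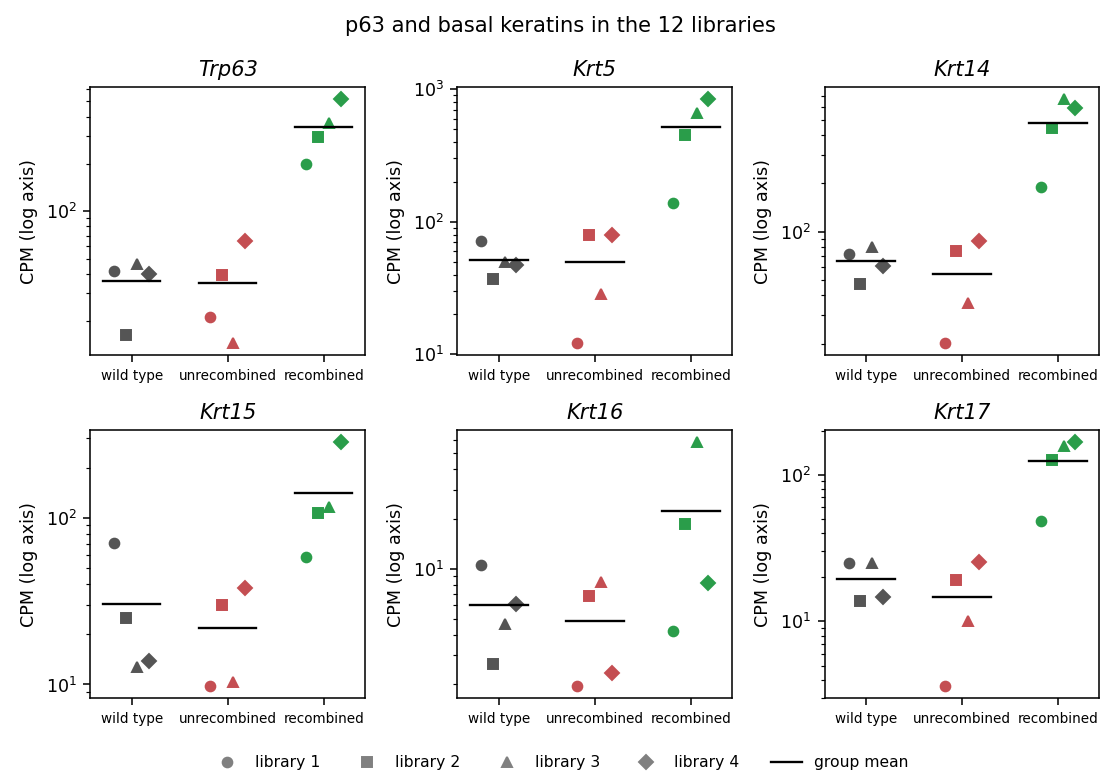
Level of each gene (CPM, log axis) in the 12 libraries. Points are libraries, colored by group with 1 shape per library number, and horizontal bars are group means. The 4 recombined libraries lie above the 8 others for Trp63, Krt5, Krt14 and Krt17, and recombined library 1 is the lowest of its group for all 6 genes.

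Trp63 had 200.5, 295, 365 and 514 CPM in recombined libraries 1 to 4. It had 21.3, 39.1, 14.5 and 64.5 CPM in unrecombined and 41.5, 16.3, 46.5 and 40.0 CPM in wild type libraries. The lowest recombined library was 3.11 times the highest of the others, the widest gap of the 6 genes. Group means were 344 ± 132 (SD, n = 4), 34.8 ± 22.4 and 36.1 ± 13.4 CPM. In edgeR, the log2 fold change of recombined over wild type libraries was 3.25 ± 0.476 (SE, adjusted p = 0.00139), and Trp63 was higher than in unrecombined libraries by 3.30 ± 0.477 (adjusted p = 0.00104). Trp63 was also the most even gene within the recombined group, with a highest library 2.56 times the lowest. The table gives 1 count for the whole gene, so the long and the amino-terminally truncated p63 isoforms were not separated. Its relative Trp53 had 65.1 ± 12.9 CPM in recombined and 51.2 ± 14.7 CPM in wild type libraries and did not pass, at a log2 difference of 0.34 ± 0.223 (edgeR adjusted p = 0.426), and Trp73 stayed under the filter, at no more than 1.56 CPM in any library.

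Krt5, the type II partner, had 139, 448, 659 and 836 CPM in recombined libraries 1 to 4. Its level was 12.2, 79.6, 28.5 and 79.1 CPM in unrecombined and 71.1, 37.3, 49.8 and 47.4 CPM in wild type libraries. All recombined libraries were above the others, but library 1 was only 1.75 times the highest of them. Krt5 exceeded its wild type level by a log2 fold change of 3.34 ± 0.635 (edgeR adjusted p = 0.00900), with means of 520 ± 300 (SD) and 51.4 ± 14.2 CPM. Against the unrecombined mean of 49.8 ± 34.7 CPM the log2 fold change was 3.38 ± 0.636 (edgeR adjusted p = 0.00803).

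Krt14, the type I partner, had 191, 444, 668 and 592 CPM in recombined libraries. It had 20.2, 75.5, 35.7 and 87.0 CPM in unrecombined and 72.7, 47.3, 80.2 and 61.2 CPM in wild type libraries. The groups did not overlap, and the lowest recombined value was 2.19 times the highest of the rest. Means were 474 ± 210 (SD), 54.6 ± 31.8 and 65.4 ± 14.4 CPM. The log2 fold change was 2.86 ± 0.459 against wild type (edgeR adjusted p = 0.00259) and 3.12 ± 0.464 against unrecombined libraries (edgeR adjusted p = 0.00128).

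Krt17 had 48.2, 126, 158 and 166 CPM in recombined libraries. It had 3.62, 19.2, 10.03 and 25.4 CPM in unrecombined and 24.9, 13.7, 25.0 and 14.7 CPM in wild type libraries. The groups were again separate, with library 1 of the recombined group 1.90 times the highest of the others. Krt17 was higher by a log2 fold change of 2.67 ± 0.523 against wild type (edgeR adjusted p = 0.00868) and by 3.09 ± 0.533 against unrecombined libraries (edgeR adjusted p = 0.00342).

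Krt15 had 58.1, 107, 116 and 284 CPM in recombined, 9.78, 29.8, 10.4 and 37.9 CPM in unrecombined and 70.8, 25.0, 12.7 and 13.9 CPM in wild type libraries. Wild type library 1 exceeded recombined library 1, so these groups overlapped, while all recombined libraries lay above all unrecombined ones. The log2 difference from wild type was 2.20 ± 0.678 and did not pass (edgeR adjusted p = 0.0778), and that from unrecombined libraries was 2.68 ± 0.691 (edgeR adjusted p = 0.0434). Both calls depended on few libraries and on the method. Without wild type library 1 the first difference was 3.03 and passed (edgeR adjusted p = 0.0185). It also passed in 2 of 14 other alternatives, with DESeq2 among them. The second passed in 7 of these 14. The second kept its call in only 3 of the 12 fits that left out 1 library, and lost it with the replicate number as a block, at 2.74 (edgeR adjusted p = 0.0568).

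Krt16 had the lowest mean level of the 6 genes in each group and was the least even of them within the recombined group. It had 4.21, 18.6, 57.9 and 8.20 CPM in recombined, 1.96, 6.82, 8.30 and 2.34 CPM in unrecombined and 10.6, 2.67, 4.63 and 6.16 CPM in wild type libraries. Its highest recombined library, 3, was 13.7 times its lowest, and the groups overlapped. Neither the log2 difference from wild type, 1.88 ± 0.738 (edgeR adjusted p = 0.164), nor that from unrecombined libraries, 2.19 ± 0.747 (edgeR adjusted p = 0.121), passed. Recombined library 3 decided the size of both: without it they were 0.79 and 1.11. Without recombined library 1, the difference from unrecombined libraries passed (edgeR adjusted p = 0.0432).

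**Figure D2:**
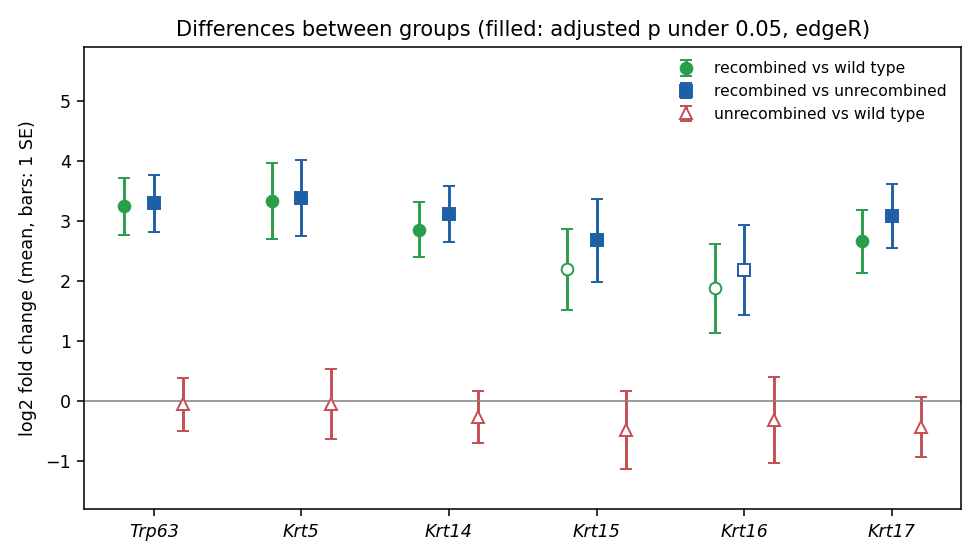
Log2 fold change of each gene in the 3 comparisons (points, with bars of 1 SE; filled where the adjusted p of edgeR was under 0.05). Trp63, Krt5, Krt14 and Krt17 are filled in both comparisons with recombined libraries, Krt15 in 1 of them, and the 6 values of unrecombined against wild type lie between -0.48 and -0.04.

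None of the 6 genes passed between unrecombined and wild type libraries, the comparison of red cells of Cre-carrying animals with cells of animals without Cre. Log2 differences were -0.05 ± 0.438 for Trp63, -0.04 ± 0.581 for Krt5, -0.26 ± 0.429 for Krt14, -0.48 ± 0.653 for Krt15, -0.31 ± 0.721 for Krt16 and -0.43 ± 0.496 for Krt17 (SE, all edgeR adjusted p = 1.00). No locus passed in this comparison (0%), 3.85% had an unadjusted p under 0.05 in edgeR, and 78 loci passed with DESeq2 and 18 with limma-voom. The groups overlapped for all 6 genes, and over all loci 2.86% had every unrecombined library above and 1.55% below every wild type library. For each of the 6 genes the order of group means was recombined, wild type, unrecombined, and the last pair was not separated beyond its spread.

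Recombined and unrecombined libraries of the same number behaved as pairs (described with the processing), and within pairs all 6 genes were higher in the recombined library in 4 of 4 pairs. For the 5 genes with every recombined library above every unrecombined one, this follows from that separation. The share of all loci that were higher in 4 of 4 pairs was not computed, and the pairs are made of the same libraries as the group comparison. Trp63 was 9.43, 7.55, 25.2 and 7.96 times higher in pairs 1 to 4. Krt5 was 11.4, 5.62, 23.1 and 10.6 times higher, and Krt14 9.44, 5.88, 18.7 and 6.81 times. The ratio was largest in pair 3 for all 6 genes, whose unrecombined library was the lowest of its group for Trp63 but not for any of the 5 keratins. Krt17 ranged from 6.53 to 15.7 times, Krt15 from 3.57 to 11.2 times and Krt16 from 2.15 to 6.97 times.

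Recombined libraries 3 and 4, which stood apart from the rest, weighed on these results. Without both, Trp63 still passed against wild type libraries at a log2 fold change of 2.78 (edgeR adjusted p = 0.0359). Krt5 was then 2.51 (edgeR adjusted p = 0.137), Krt14 2.28 (0.0637) and Krt17 2.15 (0.143), so 1 of the 6 genes passed. Against unrecombined libraries 2 passed, Trp63 at 2.83 (edgeR adjusted p = 0.0290) and Krt14 at 2.55 (0.0370). Leaving out the 5 libraries with salivary transcripts left only libraries 3 and 4 in the recombined group, so that fit does not test the calls apart from them. In it the calls were kept for Trp63, Krt5, Krt14 and Krt17 in both comparisons. Their log2 fold changes against wild type were 3.40, 3.77, 3.18 and 2.95. Each of these 4 genes passed in all 12 fits that left out a single library.

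The library numbers in the labels fall into 2 series, 1 with recombined and unrecombined libraries 1 and 2 and wild type 1 to 3, the other with the remaining 5. The labels do not call them batches. Within the first series the log2 differences of recombined from wild type libraries were 2.83 for Trp63, 2.48 for Krt5, 2.25 for Krt14 and 2.04 for Krt17, and none of the 6 genes passed (edgeR adjusted p = 0.0678 for Trp63). In the second series, with a single wild type library that is assumed to vary like the rest, they were 3.46, 3.98, 3.36 and 3.46, and again none passed (edgeR adjusted p = 0.100 for Trp63). Against unrecombined libraries none passed in the first series, with 3.04 for Trp63, and in the second Trp63, Krt14 and Krt17 passed, at 3.47, 3.36 and 3.19. The direction was the same in both series for all 6 genes.

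Per kilobase of exon, which allows levels to be compared between genes, Krt14 was the most abundant of the 6 in all groups. Its mean was 279 CPM per kb in recombined, 32.1 in unrecombined and 38.5 in wild type libraries. Krt5 followed with 237, 22.7 and 23.4 CPM per kb. Krt15 (83.0, 12.9 and 18.0) and Krt17 (80.3, 9.39 and 12.6) came next, then Trp63 (40.9, 4.15 and 4.30) and last Krt16 (14.2, 3.10 and 3.84). Type II Krt5 per kb was 0.352 to 0.606 times the summed type I basal keratins in recombined, 0.261 to 0.460 times in unrecombined and 0.302 to 0.375 times in wild type libraries. Of the type I sum, Krt14 made up a mean of 61.5% in recombined, 55.6% in unrecombined and 54.7% in wild type libraries, and Krt17 17.7%, 15.3% and 17.5%. The makeup was more variable for Krt15, which reached 38.8% in wild type library 1 against 10.1% in wild type library 3.

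**Figure D3:**
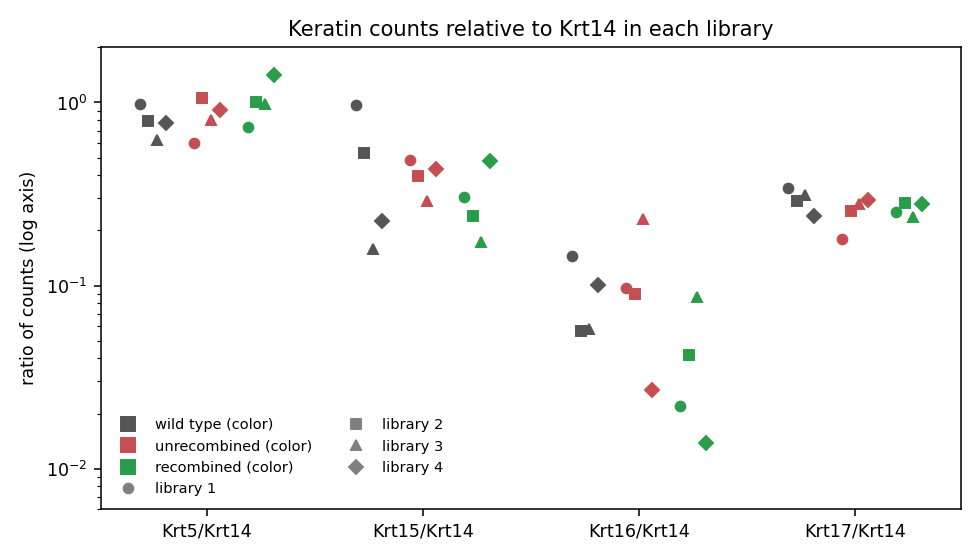
Counts of Krt5, Krt15, Krt16 and Krt17 relative to Krt14 in each library (log axis, no correction for length). Color gives the group and shape the library number. Krt17/Krt14 is the tightest ratio, between 0.180 and 0.342 in all 12 libraries, and Krt16/Krt14 the widest.

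Relative to Krt14 in the same library, the keratins differed less between groups than their levels did. The ratio of Krt17 to Krt14 counts was 0.236 to 0.284 in recombined, 0.180 to 0.292 in unrecombined and 0.240 to 0.342 in wild type libraries. That of Krt5 to Krt14 was 0.731 to 1.41, 0.603 to 1.05 and 0.620 to 0.978. Krt15 to Krt14 spanned 0.173 to 0.479, 0.290 to 0.485 and 0.158 to 0.974. The most spread was seen for Krt16 to Krt14, at 0.0139 to 0.0866, 0.0269 to 0.232 and 0.0565 to 0.146. None of 18 two-sided exact permutation tests of such ratios between groups, with Krt5/Trp63 and Krt14/Trp63 included, passed (smallest adjusted p = 0.661, with 0.0286 the smallest unadjusted p that 4 against 4 libraries allow). A single fully separated ratio could not have passed after adjustment over 18 tests, so these tests do not show that the ratios were equal. The largest differences were those of Krt16/Krt14, which was 0.377 times as high in recombined as in unrecombined libraries (exact permutation p = 0.143) and 0.391 times as high as in wild type libraries (exact permutation p = 0.114).

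Across the 12 libraries, with each gene centred on its own mean, Krt14 and Krt17 differed by a root mean square of 0.22 log2 units. None of 7124 loci outside the 6 genes with 1 symbol and a mean log2 CPM of at least 2 was closer to Krt14 than Krt17. Krt14 and Krt5 differed by 0.33, with 2 loci closer, and Krt14 and Trp63 by 0.47, with 5 closer. Krt16 lay far from the rest, at 1.12 from Krt14 and 1.43 from Trp63. The closest loci to Krt14 were Col17a1 (0.26), the hemidesmosomal collagen of basal cells, Cdh3 (0.29), the P-cadherin of myoepithelium, Trim29 (0.44), Tpm2 (0.44) and the laminin chain Lama3 (0.47). Those closest to Krt5 were Cdh3 (0.49), Trim29 (0.49), Col17a1 (0.51), the smooth muscle gene Cnn1 (0.53) and Moxd1 (0.56). Trp63 had Lama1 (0.46), Cntfr (0.52), the Hedgehog receptor and target Ptch1 (0.55), Kirrel3 (0.57) and Cdh3 (0.58) nearest. These distances describe 12 libraries that share group differences and depth, and carry no test.

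The wider p63 program was described with a list of 30 genes of epithelial adhesion, basement membrane and signalling, of which 29 were tested. In recombined against wild type libraries 18 were higher, none lower and 11 did not pass, with a median log2 fold change of 1.39 (-0.02 over all loci). Against unrecombined libraries 17 were higher and none lower, with a median of 1.504, and between unrecombined and wild type libraries none of the 29 passed, with a median of -0.06. Of the 29, 26 had positive differences from wild type libraries. Every recombined library was above every wild type one for 14 and below for 1 (6.33% and 5.91% over all loci). The latter was Zfp750, with 1.24 to 19.8 CPM in recombined and 22.7 to 38.3 CPM in wild type libraries. Lamb3, a chain of laminin-332, had 46.3, 81.4, 70.3 and 87.9 CPM in recombined libraries against 10.97 to 16.1 CPM in wild type ones, a log2 fold change of 2.31 ± 0.263 (edgeR adjusted p = 0.000241). Lama3, another chain of it, was higher by 2.27 ± 0.317 (edgeR adjusted p = 0.000875), Cdh3 by 2.65 ± 0.400 (0.00149) and Col17a1 by 2.32 ± 0.396 (0.00354). All 4 recombined libraries lay above all 8 others for these 4 genes. Without recombined libraries 3 and 4 the count fell to 3 of 30 tested against wild type and 4 of 30 against unrecombined libraries, and with single libraries left out it lay between 13 and 21 (1 of them lower without wild type 1) and between 9 and 18. The counts under 12 against unrecombined libraries were 9 without recombined 3, 9 without unrecombined 1 and 11 without recombined 4. Within the first and the second library number series 1 and 2 genes passed against wild type, and 1 and 8 against unrecombined libraries. Without the 5 libraries with salivary transcripts, which left only libraries 3 and 4 in the recombined group, it was 18 and 15 of 30.

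**Figure D4:**
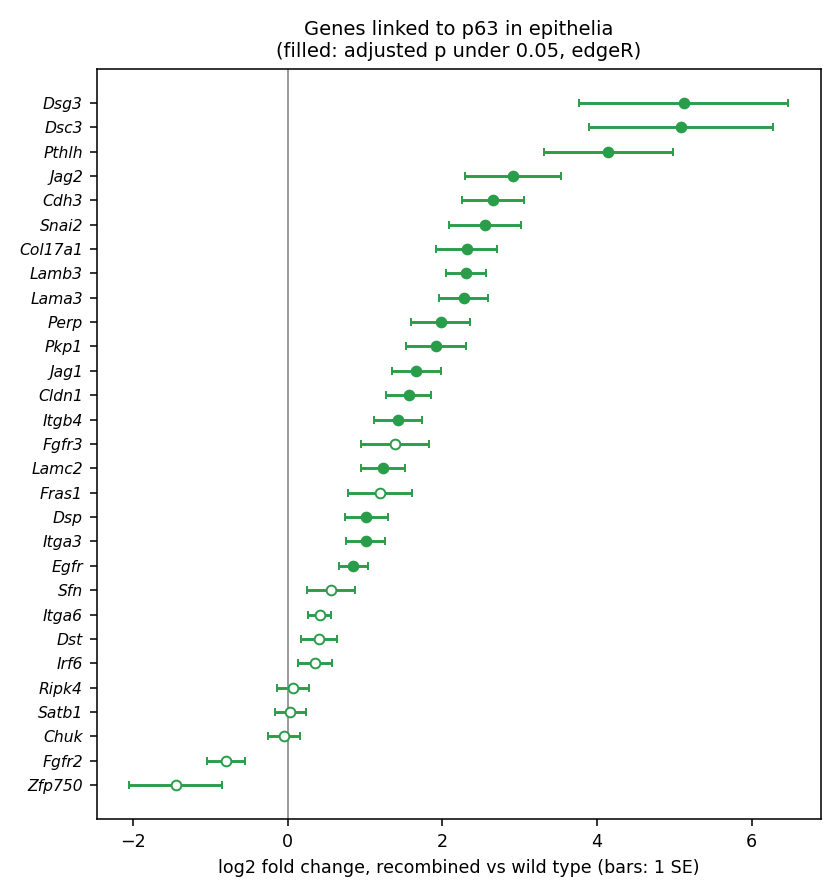
Log2 fold change of the 29 tested genes of the p63 program in recombined against wild type libraries, with bars of 1 SE (filled where the adjusted p of edgeR was under 0.05). The 18 filled genes are all above 0.

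Contractile genes of the myoepithelial layer, which is marked by Krt5 and Krt14, were higher too. Of 10, 8 were higher against wild type and 9 against unrecombined libraries, none was lower, and medians were 1.83 and 2.28. Smooth muscle myosin Myh11 was higher by a log2 fold change of 2.15 ± 0.368 (edgeR adjusted p = 0.00358), Tpm2 by 2.46 ± 0.460 (0.00663), Lmod1 by 1.74 ± 0.332 (0.00683) and Mylk by 1.92 ± 0.367 (0.00704) against wild type libraries. Without recombined libraries 3 and 4 the counts were 1 and 2. Within the first library number series none of the 10 passed in either comparison, and within the second 0 passed against wild type and 6 against unrecombined libraries. The summed level of the 10 genes was lowest, at 2082 CPM, in the recombined library that was also lowest for Trp63 and the keratins, library 1, and was 5184 to 9192 CPM in the other 3. That of Smo, Gli1, Ptch1 and Hhip was likewise 203 CPM in library 1 and 465 to 967 CPM in the others.

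The simple keratins of luminal cells had lower means in recombined libraries, and none of 4 tested passed. Krt8 had 212, 189, 106 and 85.7 CPM in recombined libraries 1 to 4 and 199, 359, 308 and 313 CPM in wild type libraries, a log2 difference of -0.99 ± 0.288 (edgeR adjusted p = 0.0557). Krt18 differed by -0.96 ± 0.297 (edgeR adjusted p = 0.0712), Krt19 by -1.02 ± 0.314 (0.0703) and Krt7 by -1.27 ± 0.485 (0.151). The replicate block or DESeq2 called 3 of these 4 genes lower than in wild type libraries and 1 lower than in unrecombined libraries. Without recombined library 1, 3 passed against wild type and 2 against unrecombined libraries, and without wild type library 1, 2 passed against wild type, all lower. Against wild type libraries 2 also passed without the 5 libraries with salivary transcripts, which left only libraries 3 and 4 in the recombined group. The ratio of summed Krt5 and Krt14 to summed Krt8 and Krt18 CPM was 0.355, 1.11, 2.55 and 3.80 in recombined libraries 1 to 4. It was 0.0343 to 0.217 in unrecombined and 0.0504 to 0.166 in wild type libraries, so the groups did not overlap.

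**Figure D5:**
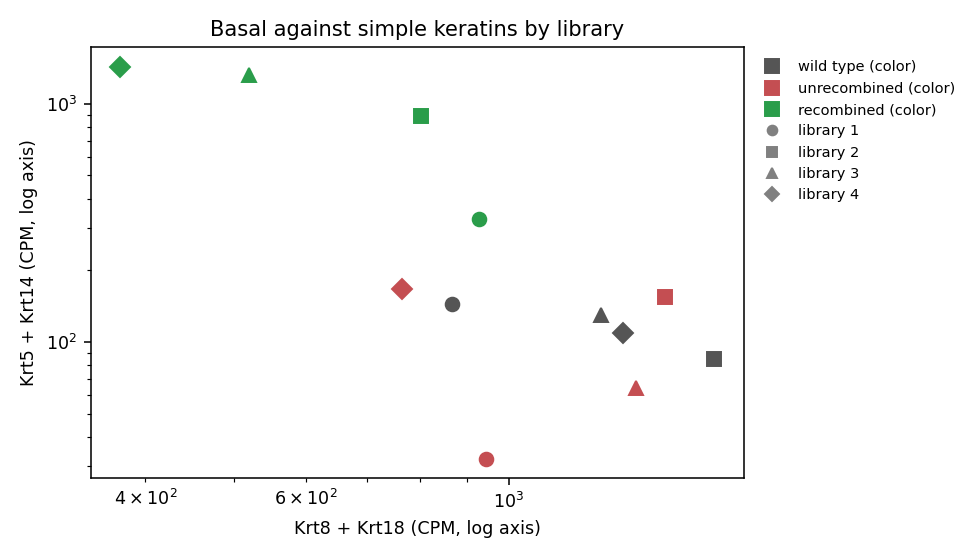
Summed Krt5 and Krt14 against summed Krt8 and Krt18 in each library (CPM, both axes logarithmic). Color gives the group and shape the library number. Recombined libraries lie above the others on the basal axis, and libraries 3 and 4 also lie furthest left on the simple keratin axis.

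Other keratins of stratified epithelia summed to 19.5 to 110 CPM in the 12 libraries. Of 14 listed, 13 were found and 7 tested, with a median log2 difference of -0.14 between recombined and wild type libraries and 1 lower gene. That gene, Krt13, was low throughout its own entry, with 0 counts in all 4 recombined libraries and at most 0.873 CPM in wild type ones (edgeR adjusted p = 0.0359). It passed in only 2 of 12 single-library leave-outs. The entry joining Krt13 with Krt15, outside this test, went the other way. It held 72 counts in recombined libraries, 66 of them in library 3, and 2 in wild type libraries. Krt79 differed by 3.43 ± 1.51 (edgeR adjusted p = 0.219), Krt23 by 2.00 ± 1.00 (0.288) and Krt4 by -1.85 ± 0.983 (0.313).

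Markers of other cell types that also express these keratins, or that differ between the groups, are given beside the results. The summed level of 9 suprabasal epidermis genes was 12.7 to 22.6 CPM in recombined, 20.0 to 36.3 in unrecombined and 19.1 to 114 in wild type libraries, with Lor at no more than 1.35 CPM. Of 4 tested, 1, Sprr1a, was lower in recombined than in wild type libraries, and the other 3 had positive differences that did not pass. Sprr1a alone had 104 CPM in wild type library 2, the library with the highest sum. The 7 hair follicle genes found summed to 3.73 to 14.3 CPM in recombined and 1.04 to 4.33 CPM in the other libraries, and 1 of 2 tested was higher against unrecombined libraries. All 8 fibroblast genes were lower in recombined libraries in both comparisons, with sums of 205 to 571 CPM against 1387 to 3392 in wild type and 5113 to 7268 in unrecombined libraries. Of 8 luminal hormone-sensing genes 7 were lower than in wild type and 3 lower than in unrecombined libraries. The first count was 4 without recombined 4, wild type 2 or wild type 4, 3 without recombined 3 and 4, and 1 and 3 within the library number series. The second was 1 without unrecombined 1, unrecombined 4 or recombined 3 and 4 together, 0 and 2 within the series, 6 with DESeq2 and 7 with the replicate block. None of 7 luminal progenitor genes passed in either comparison. Of 7 pericyte and vascular smooth muscle genes, 2 were higher and 1 lower against wild type and 1 was higher and 1 lower against unrecombined libraries. None of 10 salivary genes passed. The part of cell makeup in the differences of Trp63 and the keratins was not tested.

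Entries that join several loci gave a further readout of the keratins. Of 81 such entries that name 1 of the 6 genes, 16 join 2 or more of them, and their meaning is not stated in the labels. The entry of Krt14 with Krt16, the pair with the longest shared run shown above, was the largest, with 1536 counts over the 12 libraries. It had 4.90, 13.8, 14.7 and 15.4 CPM in recombined libraries, 1.29 ± 1.01 CPM (SD, n = 4) in unrecombined and 1.97 ± 0.420 CPM in wild type libraries. This profile was even across recombined libraries 2 to 4, like Krt14 and unlike Krt16, whose own entry peaked in library 3. The entry of Krt14 with Krt17 held 688 counts, that of Krt14 with Krt17 and Krt42 227, and that of Krt15 with Krt17 107. The remaining 12 held at most 16 each, Krt15 with Krt14 being the largest of them.

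Relative to the counts of their own entries, joint entries were small for most of the genes, at 4.52% for Krt14, 7.24% for Krt17, 1.39% for Krt15, 1.31% for Krt5 and 0 for Trp63. For Krt16 they came to 51.0% over all libraries, 118% in recombined library 1 and 189% in recombined library 4, so the level of Krt16 depends on where these counts belong. With all joint counts added to each gene, Krt16 was higher against unrecombined libraries by a log2 fold change of 2.46 and passed (edgeR adjusted p = 0.0271), which made 6 of 6. Against wild type libraries it was 2.08 and did not pass (edgeR adjusted p = 0.0508). Of the 1589 joint counts added to Krt16, 1536 came from the entry with Krt14, and each was added in full to both genes. This fit therefore cannot separate reads of Krt16 from reads of Krt14. No call of the other 5 genes changed.

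The promoter of Krt5 is shown because Krt5 is a textbook target of p63 and rose with it. RefSeq (GRCm38.p6) gave promoter windows for 2 of the 6 genes. That of Krt14 began 1518 bases inside the GENCODE gene and is not shown. In the 250 bases before the start of Krt5, at chr15:101712906-101713155 on the minus strand, 1 match to the p53-family half-site consensus was found, 95 to 86 bases before the start, in capitals below. Both strands were searched, and 7.13% of 32851 promoter windows of this length held a match. The GLI consensus GACCACCCA, searched on both strands, is not in this window and is in 0.225% of such windows. A match describes the letters only, and binding was not measured.
Krt5 promoter: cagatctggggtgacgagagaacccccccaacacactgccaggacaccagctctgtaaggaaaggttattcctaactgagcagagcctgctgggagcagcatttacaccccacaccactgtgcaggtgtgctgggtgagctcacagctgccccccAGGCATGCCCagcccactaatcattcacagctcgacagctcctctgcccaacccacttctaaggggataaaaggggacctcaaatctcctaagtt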

How the data were processed

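Total RNA of sorted cells gave 12 libraries, made with standard Illumina methods, per the labels' protocols. The submitters' processing notes name STAR, HTSeq 0.3.1 and mm9; options, strand setting and annotation are not given in the sources used here. Values in the deposited table are raw counts, per the file headers, and are whole numbers. It has 36635 entries, 20114 for a single locus and 16521 that join several loci (0.0617% to 0.101% of the counts of a library), which were kept out of library sizes and of the reported tests. Reads of overlapping or antisense genes may be included.

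Single-locus counts were scaled by the trimmed mean of M values, filtered with filterByExpr (minimum count 10), which left 14039 loci, and fitted in edgeR 4.0.16 (R 4.3.3) by robust quasi-likelihood, with group means over all 12 libraries and an F test. Tests were two-sided with Benjamini-Hochberg adjustment over all loci and a threshold of 0.05. CPM values carry the same scaling, and SE is the log2 fold change over the square root of F. The fit was also run on simulated counts of independent libraries with the same dispersion for all loci. That run did not model pairs or outlying libraries and lends no support to the calls. Differences in log2 ratios were tested by exact permutation over libraries. Distances between genes used log2 CPM with a prior count of 2. Alternatives were DESeq2 1.42.0, limma-voom of limma 3.58.1, other scalings and filters (minimum count 50, none), the 2 groups alone, the replicate block, the series of library numbers, joint entries added, and each library left out. Leaving out recombined 3 and 4 together, or the 5 libraries with salivary transcripts, was chosen after seeing the data.

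The genes and lists were chosen from textbook knowledge with earlier results of these data known. Named in the text are the 6 genes, the entries joining them, up to 4 genes per list with the smallest p against wild type, and the 5 loci nearest to Trp63, Krt5 and Krt14. Trp73, Zfp750, Lor, Amy1 and the sums over lists were named beside them.

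Replicate numbers come from the labels. Deviations from group means correlated across loci with r of 0.239 to 0.399 between recombined and unrecombined libraries of the same number. The numbers were therefore taken as pairs there. Between different numbers r was -0.240 to -0.0345. Deviations cancel within a group, so positive same-number values push the others down, and this range is no separate evidence. For wild type libraries the same-number r was -0.0315 to 0.185 with recombined and 0.00248 to 0.312 with unrecombined libraries, and they were not taken as pairs.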

Additional observations from a re-analysis of the deposited data

Results flagged for a closer look

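Entries that join several loci are outside the comparisons above, and those with at least 50 counts in which all recombined libraries exceeded all wild type libraries are given here. Among entries of that size that name 1 of the 6 genes, the groups overlapped for Krt13 with Krt15, Krt15 with Krt19 and Krt14 with Krt42. They also overlapped for Krt19 with Krt14, Krt19 with Krt17, and Krt5 with Krt82 and Krt6a. Over all single loci tested, 6.33% had every recombined above every wild type library. Mean levels in recombined libraries were 12.2 CPM for Krt14 with Krt16, 5.47 CPM for Krt14 with Krt17, 1.97 CPM for Krt14 with Krt17 and Krt42, and 0.831 CPM for Krt15 with Krt17. The wild type means of these 4 were 1.97, 0.895, 0.241 and 0.108 CPM. Entries of Krt5 with other type II keratins or predicted genes had 1.38 CPM with Krt6b, 0.876 CPM with Krt82, Krt6a and Gm5478, 0.740 CPM with Krt82, Krt6a and Gm5414, 0.560 CPM with Gm5478 and 0.564 CPM with Gm5414. Krt5 shared 150 windows of 50 bases with Krt6a and 49 with Krt6b in the GENCODE transcripts. In the 18 groups of 4 libraries, the gap of the highest or lowest library to its neighbour, as a share of the range, stayed under Dixon's critical value for 4 values, which only extreme gaps can pass. It was 0.788 for Krt15 in wild type 1, 0.784 for Trp63 in wild type 2, 0.744 for Krt15 in recombined 4 and 0.732 for Krt16 in recombined 3.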

How the results depend on the processing

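Trp63, Krt5, Krt14 and Krt17 kept their direction in both comparisons with recombined libraries under every alternative run. Of the 6 genes, 4 passed against wild type, with 4 to 5 over the single-library leave-outs, 6 with DESeq2, 0 within either library number series and 1 without recombined 3 and 4. Against unrecombined libraries 5 passed, with 4 to 6 over the leave-outs, 6 with DESeq2 or joint entries added, 0 and 3 within the series and 2 without recombined 3 and 4. Against wild type 5 passed with limma-voom. Against unrecombined libraries 4 passed without a filter or with the library number series as a covariate. With the replicate block 4 passed in each, Krt15 being lost against unrecombined libraries, and no other call of the 6 genes changed. This block covered all 12 libraries, so it also matched wild type libraries by number, which were not taken as pairs. No fit paired only recombined and unrecombined libraries, and the reported tests did not use the pairs.

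Loci past the threshold against wild type numbered 920, and 1617 with DESeq2, 594 with 2 groups only, 86 and 229 within the series, 248 without recombined 3 and 4, and 502 (without wild type 4) to 1217 over the leave-outs (600 without wild type 3, 612 without wild type 2). Against unrecombined libraries there were 733, and 1349 with DESeq2, 108 within the first series, 282 without recombined 3 and 4, and 449 (without unrecombined 1) to 1044 over the leave-outs. With the replicate block loci numbered 1194, 980 and 1. Between unrecombined and wild type libraries 0 loci passed, and 78 with DESeq2, 18 with limma-voom, 8 with 2 groups only and 1 with the replicate block.

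Over the leave-outs, the log2 difference between unrecombined and wild type libraries ranged from -0.53 to 0.21 for Trp63, -0.36 to 0.28 for Krt5, -0.58 to 0.018 for Krt14, -0.88 to 0.36 for Krt15 and -0.70 to 0.11 for Krt16. Log2 differences between unrecombined and wild type libraries, none past the threshold, changed sign within the second series for Krt5 (0.18), Krt14 (0.00339), Krt15 (0.80) and Krt17 (0.27).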
